A study of Mus musculus with 6 samples.

Results

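Unrelated in their products, the genes Tspan4, Abracl, Tmem178, Angptl7 and Hrg were followed across 6 mouse kidney libraries. They are 5 of the 46095 rows of the deposited count table, found by their symbols, and all 5 were among the 15367 genes with enough counts to be tested. They were chosen by their counts, which were higher in the DHT libraries than in the controls, and because DHT replicate 2 stayed as high as the other DHT libraries for some of them and not for others. The difference between the groups and the place of DHT replicate 2 are therefore given as a description of these libraries, with no test.

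RNA was sequenced from kidneys of mice on a C57BL/6 background, 3 labelled DHT (dihydrotestosterone, a potent androgen that the body does not convert to oestrogen) and 3 labelled control. The strain label reads PCOS mouse (PCOS stands for polycystic ovary syndrome) for every sample, the controls included, and only the treatment label separates the groups. The labels give no dose, duration, age or sex. They do not say whether replicates came from separate animals, so every spread below, and every p-value, measures the differences between these samples, which may be technical. Libraries held 15.05 to 19.33 in units of 1e6 counts. A kidney marker was present in all of them: Slc34a1, the sodium-phosphate carrier of the proximal tubule, stood at 3927 to 5580 CPM (counts per 1e6 after TMM scaling for library composition) in DHT and 3800 to 5899 CPM in control. In whole kidney, a change in the number of cells of a type and a change in the RNA of each cell cannot be told apart.

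The 5 genes do not form a pathway. Tspan4 encodes a tetraspanin, one of a family of proteins that cross the membrane repeatedly, gather integrins and other partners into membrane domains, and, for Tspan4, promote migrasomes, the vesicle-bearing bodies left on the retraction fibres of moving cells. Abracl encodes a small protein linked to cofilin-driven actin turnover. Tmem178 encodes a membrane protein of the endoplasmic reticulum that restrains calcium entry through Stim1 in osteoclast precursors. Angptl7 encodes a secreted angiopoietin-like factor best known from the outflow tissue and cornea of the eye. Hrg encodes histidine-rich glycoprotein, a plasma protein of the cystatin family made mainly by the liver, which binds heparin, heme, metal ions and plasminogen.

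The sequence before the gene start was compared first, because it was not used to choose the genes. RefSeq windows on GRCm38.p6 were found for all 5 genes, and the 250 bases before each start were searched on both strands. The windows below are those of the pair in which DHT replicate 2 stayed high, Tspan4 and Abracl, and of the pair in which it was lowest, Angptl7 and Hrg. Each is the longest stretch outside any annotated exon, 5′ to 3′ on the gene's strand, and capitals mark a match to a searched motif. They lie at chr7:141475133-141475235 (plus strand), chr10:18023289-18023502 (minus), chr4:148500463-148500712 (minus) and chr16:22950822-22951071 (plus).
Tspan4: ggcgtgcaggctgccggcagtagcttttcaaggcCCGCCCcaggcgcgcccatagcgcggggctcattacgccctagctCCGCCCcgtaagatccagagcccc
Abracl: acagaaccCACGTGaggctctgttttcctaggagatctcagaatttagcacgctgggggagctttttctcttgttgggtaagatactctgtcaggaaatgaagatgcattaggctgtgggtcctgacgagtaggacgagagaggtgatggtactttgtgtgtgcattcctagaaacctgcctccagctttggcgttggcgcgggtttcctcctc
Angptl7: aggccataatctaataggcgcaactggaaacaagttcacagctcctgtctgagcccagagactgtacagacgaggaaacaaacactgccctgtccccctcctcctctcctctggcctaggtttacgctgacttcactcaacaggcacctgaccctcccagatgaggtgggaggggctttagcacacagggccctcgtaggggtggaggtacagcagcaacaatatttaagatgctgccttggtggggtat
Hrg: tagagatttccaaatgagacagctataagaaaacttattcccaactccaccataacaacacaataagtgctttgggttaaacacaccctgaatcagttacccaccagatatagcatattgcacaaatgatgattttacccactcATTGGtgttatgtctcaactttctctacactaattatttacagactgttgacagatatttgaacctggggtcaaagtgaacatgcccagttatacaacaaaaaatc

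The capitals in Tspan4 are 2 GC boxes (GGGCGG or its complement, letters held by 32.7% of 32851 windows), which begin 69 and 24 bases before the start. The capitals in Abracl are an E-box (CACGTG, held by 6.02% of windows) that begins 242 bases before the start, and a GC box lies 15 bases before it, in the annotated exon that is not printed. Tspan4 and Abracl each have another RefSeq start. The second Tspan4 window holds an E-box 51 bases before that start, and the second Abracl window holds the same GC box, 177 bases before its start. Hrg holds a CCAAT box, read as ATTGG, 106 bases before its start (33.8% of windows), and Angptl7 held none of the searched letters. The window of Tmem178 holds 3 GC boxes, 2 of which overlap. The core hexamer of the androgen response element (AGAACA, in 16.1% of windows), the palindromic androgen response element (in 0.00913%), the D-box (TTATGTAA, in 0.819%), the TATA box (TATAAA, in 12.4%) and the palindromic HNF1 site (in 0.00913%) were found in none of the 7 windows, which says only that these letters are not in these stretches.

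Base composition differed among the genes. G and C made up 36.4% of the Hrg window, 54.4% of the Angptl7 window, 53.6% of the leading Abracl window, 68% of the leading Tspan4 window and 77.2% of the Tmem178 window, against a median of 52.4% over all windows. The second windows held 63.2% in Tspan4 and 62% in Abracl, so the place of Abracl beside Angptl7 depends on the start used. The leading Tspan4 window includes 105 exonic bases of the neighbouring gene Polr2l, and the Abracl windows 36 and 198 of Abracl. Hrg held 0 CpG dinucleotides and Tmem178 29, against a median of 6. With 5 genes this is a description, and no relation to the levels was tested.

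Tspan4 (ENSMUSG00000025511.14, chromosome 7, 141475240 to 141493427, GRCm38, plus strand, protein-coding) stood at 54.6, 71.0 and 67.0 CPM in DHT replicates 1, 2 and 3 and at 25.1, 22.9 and 27.8 CPM in control replicates 1, 2 and 3. Every DHT library lay above every control, and DHT replicate 2 was the highest of the 6. The means were 64.2 ± 8.54 CPM in DHT and 25.3 ± 2.44 CPM in control (SD, n = 3 each), a fitted log2 fold change of 1.34 ± 0.14 SE. Left without DHT replicate 2, the fold change of Tspan4 was 1.26 ± 0.14.

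Abracl (ENSMUSG00000078453.3, chromosome 10, 18011260 to 18023288, minus strand, protein-coding) had counts of 659, 675 and 722 in DHT replicates 1, 2 and 3 and of 342, 447 and 434 in control replicates 1, 2 and 3. These correspond to 41.4, 42.3 and 42.8 CPM and to 21.0, 23.2 and 21.5 CPM. The DHT libraries differed from each other by less than the 95% exact Poisson intervals of their counts, which cover counting error only. Abracl was the evenest of the 5 genes, with a coefficient of variation of 1.71% in DHT and 5.21% in control, and its log2 fold change was 0.95 ± 0.11, or 0.93 ± 0.12 without DHT replicate 2.

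Tmem178 (ENSMUSG00000024245.4, chromosome 17, 80944632 to 81001816, plus strand, protein-coding) lay between the other pairs. It stood at 64.7, 44.8 and 54.3 CPM in DHT replicates 1, 2 and 3 and at 20.7, 17.3 and 20.0 CPM in the controls, so that DHT replicate 2 was the lowest DHT library and still 2.17 times the highest control. Its means were 54.6 ± 9.97 and 19.3 ± 1.76 CPM (SD, n = 3 each) and its log2 fold change 1.498 ± 0.156, against 1.61 ± 0.14 when DHT replicate 2 was left out.

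Angptl7 (ENSMUSG00000028989.3, chromosome 4, 148495183 to 148500460, minus strand, protein-coding) had 391, 75 and 364 counts in DHT replicates 1, 2 and 3 against 17, 30 and 16 in the controls. In CPM these were 24.6, 4.70 and 21.6 against 1.05, 1.56 and 0.79. DHT replicate 2 was thus at 21.8% of the lower of the other DHT libraries, and at 3.02 times the highest control. The exact interval of DHT replicate 2 was 3.69 to 5.89 CPM and that of the highest control 1.05 to 2.22 CPM. These intervals cover counting error only. The gene was picked by these values, so the gap between them is no test. The means were 17.0 ± 10.7 and 1.13 ± 0.39 CPM (SD, n = 3 each). The log2 fold change of Angptl7 was 3.90 ± 0.66 with all libraries and 4.33 ± 0.28 without DHT replicate 2.

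Hrg (ENSMUSG00000022877.9, chromosome 16, 22951072 to 22961656, plus strand, protein-coding) had 116, 20 and 63 counts in DHT replicates 1, 2 and 3 against 0, 3 and 1 in control replicates 1, 2 and 3. The DHT values were 7.29, 1.25 and 3.74 CPM. Their intervals did not reach each other: 6.02 to 8.74, 0.77 to 1.93 and 2.87 to 4.78 CPM. They cover counting error only, and the gene was picked by these values. Hrg passed the low-count filter only through the DHT libraries. Over the groups there were 199 counts against 4, a ratio per scaled library size of 56.9, for which counting error alone gives exact 95% bounds of 21.9 and 211. The count of 0 in control replicate 1 allows up to 0.184 CPM, taking 3 counts as the limit in that library. The 95% exact Poisson interval of that count, as used for the other values, reaches 0.227 CPM. The fitted log2 fold change of Hrg, 5.71 ± 0.92, depends on the small count that the fit adds to each library and is no bound, and it was 6.89 without control replicate 2, which holds 3 of the 4 control counts.

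**Figure D1:**
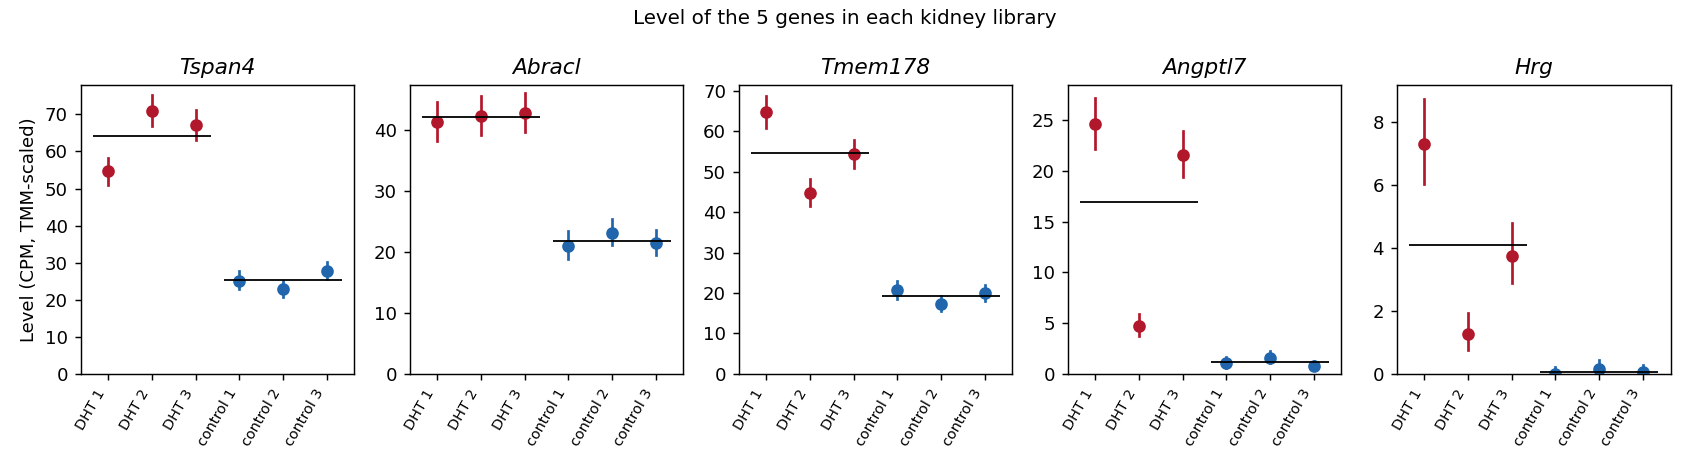
Level of each gene (CPM, TMM-scaled, linear axes from 0) in the 3 DHT libraries (red) and the 3 controls (blue); vertical lines are 95% exact Poisson intervals of the counts and horizontal lines the group means. DHT replicate 2 is the highest library for Tspan4 at 71.0 CPM, level with the others for Abracl, and the lowest DHT library for Tmem178, Angptl7 and Hrg.

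Compared per length of exon, the genes fell into a higher and a lower range. In DHT, Abracl stood at 39.9 ± 0.68 CPM per kb, Tmem178 at 32.2 ± 5.88, Tspan4 at 29.5 ± 3.92, Angptl7 at 7.86 ± 4.97 and Hrg at 2.05 ± 1.52 (SD, n = 3). Tmem178 and Tspan4 did not differ beyond their spread in that order. In control the levels were 20.7 ± 1.08 CPM per kb for Abracl, 11.6 ± 1.12 for Tspan4, 11.4 ± 1.04 for Tmem178, 0.52 ± 0.18 for Angptl7 and 0.034 ± 0.040 for Hrg, with Tspan4 and Tmem178 again within each other's spread. By fitted log2 fold change Hrg ranked 8 and Angptl7 19 of the 15367 genes, and Tmem178 191, Tspan4 249 and Abracl 549. The fold change is taken over the control level, and the genes were picked for being higher in DHT. No relation between control level and fold change is read from this order. The rank of Hrg also depends on the small count that the fit adds.

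All 5 genes were among those called higher in DHT by edgeR's quasi-likelihood test at an adjusted p of 0.05, a call that 1.38% of tested genes received in that direction and 2.84% in either, and all 5 had groups that did not overlap, as did 14.8% of tested genes with DHT higher. Both follow from how the genes were picked, and nothing is read from them. The fold changes kept their sign without any single library, as the plot of fits without each library shows. This follows from groups that do not overlap, so nothing is read from it either. The calls did not hold in the same way: without DHT replicate 3, 0 genes were called higher, these 5 included.

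**Figure D2:**
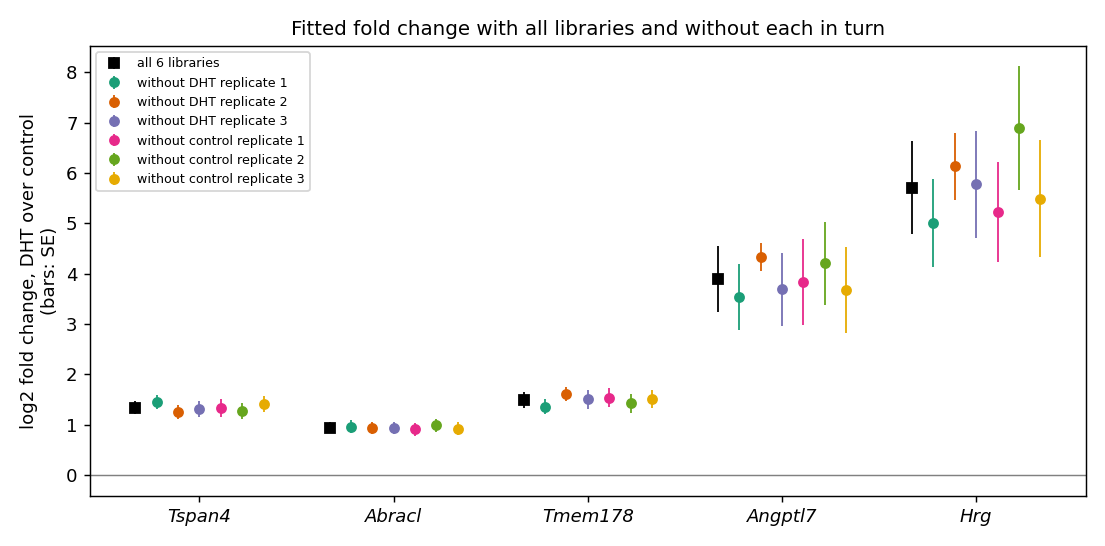
Fitted log2 fold change of DHT over control (vertical axis, bars are SE) for each gene with all 6 libraries (black squares) and without each library in turn (coloured circles). Tspan4, Abracl and Tmem178 stay within 0.91 to 1.61, Angptl7 within 3.54 to 4.33 and Hrg within 5.01 to 6.89.

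The place of DHT replicate 2 was set beside that in other genes. Of the tested genes averaging 1 CPM or more, 454 had both DHT replicates 1 and 3 at 1.5 times the highest control or more. DHT replicate 2 enters this choice only through the low-count filter and the average. In this set DHT replicate 2 stood at a median of 63.7% of the lower of DHT replicates 1 and 3 (quartiles 45.7% and 79.1%), was above all controls in 358 genes (78.9%) and was the highest library in 25 genes (5.51%). Tspan4, at 130%, lay above 95.2% of the set, Abracl, at 102%, above 89.9%, and Tmem178, at 82.5%, above 78.2%. Hrg, at 33.5%, lay above 13.7% of the set and Angptl7, at 21.8%, above 5.07%. The members therefore span this distribution, with Tspan4 and Angptl7 towards its ends, which is how they were picked. With total counts in place of TMM, DHT replicate 2 moved up for all 5 genes, to 148% for Tspan4, 117% for Abracl, 96.7% for Tmem178, 39.3% for Hrg and 25.5% for Angptl7.

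**Figure D3:**
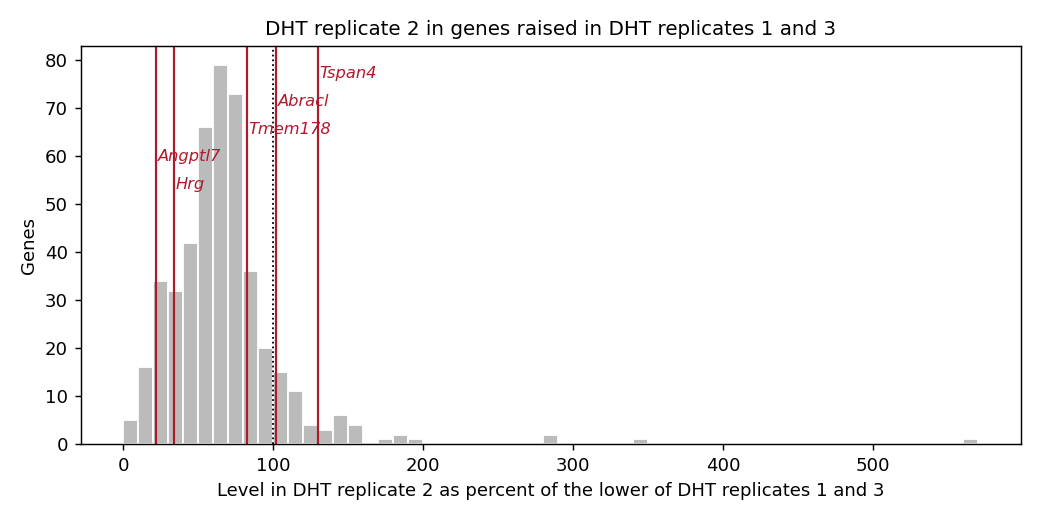
Number of genes (vertical axis) by the level of DHT replicate 2 as a percentage of the lower of DHT replicates 1 and 3 (horizontal axis), over the 454 genes raised in both of those libraries; red lines mark the 5 genes and the dotted line 100%. Angptl7 and Hrg lie at 21.8% and 33.5%, and Abracl and Tspan4 at 102% and 130%, around a median of 63.7%.

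Androgen-raised genes of the mouse kidney, a list made with these data known and so no independent evidence of direction, were set beside the members. Of 12 tested, 10 were called higher and 0 lower (against 1.38% and 1.46% of all genes), and the median log2 fold change was 3.93 against 0.003 over all tested genes. Without DHT replicate 3 or control replicate 2 the number called higher was 0, without DHT replicate 1 or control replicate 3 it was 1, and without control replicate 1 it was 6. It was 5 with the replicate block, in which Gusb, Cyp4b1, Cyp2e1, Slc22a30 and Hsd3b3 lost their calls (edgeR adjusted p = 0.0597 to 0.0802), and 5 with no low-count filter. In all 12 genes DHT replicate 2 was below the lower of the other DHT libraries, from 9.84% to 95.3% of it, where Tspan4 and Abracl were above it. Of the 454 genes raised in DHT replicates 1 and 3, only 51 (11.2%) were above it. A place below it is thus the usual one, and Tspan4 and Abracl were picked for the other. Cyp2j13, a cytochrome P450, had DHT replicate 2 at 9.84% of the lower of the other DHT libraries, and Slco1a1, an organic anion transporter, at 11.5%. Ugt2b37, Slc7a13, Cyp2e1 and Cyp4b1, among the other called genes, stood at 16.0%, 18.2%, 25.3% and 32.0%, and Timd2 and Hsd3b3 at 63.5% and 69.1%. Slc22a30, an organic anion transporter relative, stood at 34.7%, beside 33.5% in Hrg. Gusb, the lysosomal beta-glucuronidase, stood at 95.3%, beside 102% in Abracl. Of these, Slc22a30 is also among the genes most correlated with Hrg.

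Of 91 tested markers of kidney and other cell types, 1 was called higher and 0 lower by edgeR (11 and 6 at an unadjusted p under 0.05, 8 and 3 by DESeq2, 1 and 0 by limma-voom). Over all tested genes, 12% were higher and 12% lower at an unadjusted p under 0.05 in edgeR, 5.56% and 5.08% were called by DESeq2, and 1% and 1.09% by limma-voom. Several marker sums set DHT replicate 2 apart. The summed level of 12 macrophage and monocyte markers was 141, 537 and 302 CPM in DHT replicates 1, 2 and 3 and 146 to 281 CPM in control, with no marker at 0; edgeR called 0 of 12 (3 higher at an unadjusted p under 0.05, 2 called by DESeq2 and 0 by limma-voom). Lyz2, a lysozyme gene, was at 14.4, 117 and 59.0 CPM in DHT against 22.9 to 50.3 CPM in control, and Csf1r, the receptor of a macrophage growth factor, at 33.0, 60.7 and 57.3 against 26.4 to 90.7 CPM. The sum of 8 endothelial markers was 836 CPM in DHT replicate 2 against 482 to 485 CPM in the other DHT libraries and 485 to 610 CPM in control, with 1 of 8 called, Ehd3, higher. Plvap and Kdr, a caveolar protein gene and a VEGF receptor gene, stood at 157 and 145 CPM in DHT replicate 2 and at most 101 and 98.0 CPM in the other DHT libraries, against 88.7 to 162 and 86.9 to 92.5 CPM in control, so that DHT replicate 2 was above all controls for Kdr and not for Plvap. Podocyte (543, 811 and 628 CPM in DHT, 574 to 704 in control), lymphocyte (8.67, 20.4 and 9.91 against 7.07 to 13.1) and red blood cell marker sums (2.89, 70.3 and 4.51 against 7.82 to 37.5) were also highest in DHT replicate 2. Tspan4 was likewise highest in DHT replicate 2, and the part of these cells in that was not tested; its log2 fold change without that library was 1.26 against 1.34 with it.

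Proximal tubule markers moved with Angptl7 and Hrg in sum and not in their median. The sum of 9 markers was 42939, 19888 and 41574 CPM in DHT replicates 1, 2 and 3 and 19622 to 23959 CPM in control, and most of that difference lay in Kap, the androgen-regulated kidney protein gene, at 22454, 5689 and 19886 CPM against 1548 to 7770 CPM. Acsm2 and Slc27a2, acyl-CoA synthetase genes, had the same split, at 6007, 2161 and 5527 CPM against 1169 to 2703 CPM and at 4873, 2878 and 5102 CPM against 1985 to 3006 CPM. Lrp2, the megalin gene, stood at 1808, 1924 and 2090 CPM against 2292 to 2972 CPM. Over the 9 markers, the median log2 difference from the control mean was -0.20, -0.17 and -0.02 in DHT replicates 1, 2 and 3. None of the 9 was called by edgeR (2 higher and 1 lower at an unadjusted p under 0.05, the same numbers by DESeq2 and 0 by limma-voom), and their part in the levels of Angptl7 and Hrg was not tested.

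Beside Hrg, a liver-made protein, hepatocyte markers were read. Their sum over 12 genes was 132, 146 and 170 CPM in DHT replicates 1, 2 and 3 and 101 to 166 CPM in control. Ttr, the transthyretin gene and the most abundant of them, stood at 77.4, 26.1 and 90.1 CPM in DHT replicates 1, 2 and 3 and 35.3 to 66.1 CPM in control. Its groups overlapped, and DHT replicate 2 was at 33.7% of the lower of the other DHT libraries, beside 33.5% in Hrg. Against control the genes differed: DHT replicate 2 was below all controls for Ttr and at 8.05 times the highest control for Hrg. Serpina1a, an antitrypsin gene, went the other way within DHT, at 7.16, 40.6 and 11.98 CPM against 2.77 to 3.79 CPM. So did Fga, Fgb and Fgg of the same list, with DHT replicate 2 at 212%, 389% and 325% of the lower of the other DHT libraries. Alb, or albumin, stood at 12.5 to 16.9 CPM in DHT and 8.71 to 19.4 CPM in control. Ahsg, which encodes the plasma protein fetuin-A, had counts in DHT replicate 1 alone, at 0.126 CPM, and Cps1, the urea cycle enzyme of hepatocytes, reached at most 0.208 CPM in any library. Of the 10 hepatocyte markers tested, edgeR called 0 (2 higher and 1 lower at an unadjusted p under 0.05, 1 higher by DESeq2 and 0 by limma-voom), and their part in the level of Hrg was not tested.

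The loci around the genes were read next. Of the 20 nearest tested genes, 2 on each side of each gene, edgeR called 0 (4 higher and 3 lower at an unadjusted p under 0.05, 1 higher by DESeq2, 0 by limma-voom), where 12% of all tested genes pass at that unadjusted p in each direction and 1.38% and 1.46% are called. Their adjusted p-values in edgeR ran from 0.0887 to 0.97. Polr2l, a subunit shared by the RNA polymerases, starts 107 bases from Tspan4 on the opposite strand and stood at 48.5 ± 5.50 against 36.1 ± 2.43 CPM (a log2 difference of 0.43 ± 0.12, with adjusted p = 0.0887 in edgeR). Cd151, another tetraspanin gene, ends 3.77 kb from Tspan4 and stood at 118 ± 4.44 against 93.8 ± 15.1 CPM (0.33 ± 0.14, adjusted p = 0.179). Chid1 shares 292 exonic bases with Tspan4 on the opposite strand, and as the strand setting is not given those reads cannot be told apart; its own log2 fold change was 0.01 ± 0.16. Around Hrg, the related cystatin genes Fetub, at 2.48 ± 0.41 against 2.32 ± 0.64 CPM, and Kng2, a kininogen, at 409 ± 16.3 against 525 ± 108 CPM, did not pass (edgeR adjusted p = 0.875 and 0.25). A pseudogene, Gm17711, shares 237 exonic bases with Abracl on the opposite strand.

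Angptl7 lies within Mtor (chromosome 4, 148448611 to 148557683), the gene of the growth-controlling kinase mTOR, on the opposite strand and with 0 exonic bases in common. Its exons thus lie in introns of Mtor. As the strand setting is not given, reads of unspliced Mtor RNA there cannot be told apart from those of Angptl7. Their part in the level of Angptl7 was not tested. Mtor stood at 121, 51.7 and 116 CPM in DHT replicates 1, 2 and 3 and at 53.9, 53.0 and 48.3 CPM in control replicates 1, 2 and 3. DHT replicates 1 and 3 were thus above all controls and DHT replicate 2 was among them. Srm, the spermidine synthase gene 91.0 kb from Angptl7, stood at 9.42, 6.39 and 10.4 CPM against 4.98, 5.97 and 5.64 CPM, while Exosc10, an exosome subunit between Mtor and Srm, stood at 9.67 to 12.02 CPM in DHT and 10.5 to 14.4 CPM in control, with groups that overlapped. Mtor and Srm did not pass (log2 fold changes 0.89 ± 0.30 and 0.66 ± 0.24, edgeR adjusted p = 0.129 and 0.142). Across the 6 libraries the correlation with Angptl7 was 0.94 for Mtor and 0.96 for Srm, a description over libraries that share their groups.

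**Figure D4:**
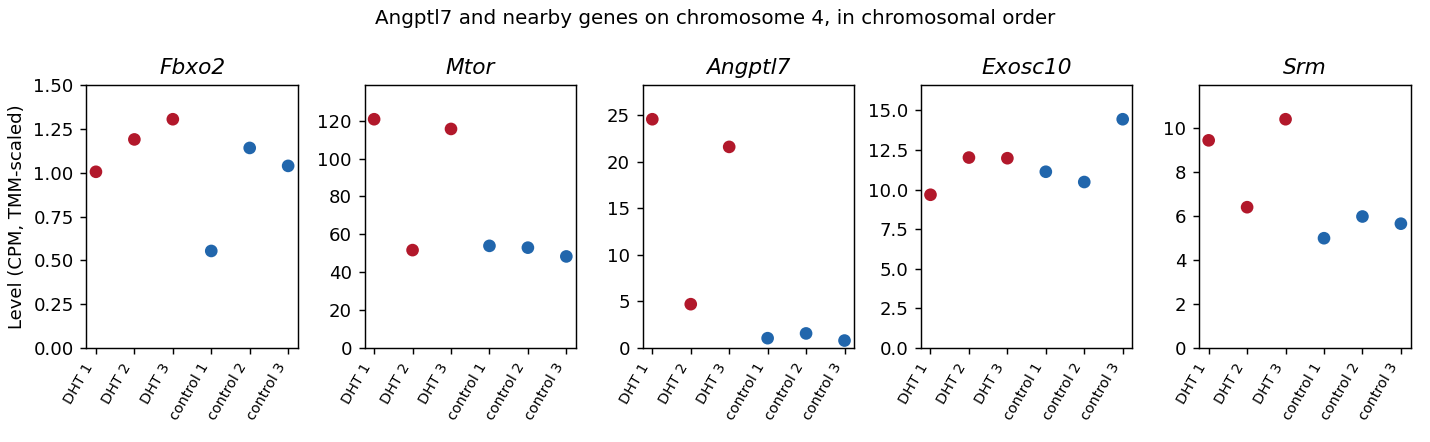
Level (CPM, TMM-scaled, each linear axis from 0) of Angptl7, of its host gene Mtor and of nearby tested genes, in the 3 DHT libraries (red) and 3 controls (blue). DHT replicates 1 and 3 stand above the controls for Angptl7, Mtor and Srm, and DHT replicate 2 falls among the controls for Mtor (51.7 CPM).

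Relatives and partners of each gene were counted from lists that leave out the 5 genes, against 1.38% of all tested genes called higher and 1.46% lower, and 12% in each direction at an unadjusted p under 0.05. Of 27 other tetraspanins, edgeR called 0 (2 higher and 4 lower at an unadjusted p under 0.05; 1 and 1 by DESeq2, 0 by limma-voom), and their median log2 fold change was -0.06 against 0.003 over all genes. Cd63, the tetraspanin of late endosomes, stood at 762 ± 30.0 against 528 ± 18.9 CPM (edgeR adjusted p = 0.0693), and Tspan12, a partner of Wnt receptors, at 36.8 ± 6.84 against 53.9 ± 6.44 CPM (adjusted p = 0.0863). Of 15 integrin partners and migrasome genes, 1 was called higher and 1 lower by edgeR (2 and 1 at an unadjusted p under 0.05, 2 and 1 by DESeq2, 1 and 1 by limma-voom). Cpq, a carboxypeptidase used as a migrasome marker, rose to 97.1 ± 7.84 CPM in DHT against 64.1 ± 2.69 in control, by 0.60 ± 0.11 on the log2 scale (adjusted p = 0.0366 in edgeR). Itga6, the laminin-binding integrin subunit, fell from 230 ± 44.6 to 84.9 ± 34.5 CPM (-1.44 ± 0.29, adjusted p = 0.0453). Itga5 and Itgb1, the integrin pair of migrasomes, stood at 15.4 against 12.9 and 296 against 287 CPM. The calls of Cpq and Itga6 were both lost with total counts (adjusted p = 0.0544 and 0.063) and without each library except DHT replicate 2 (0.0541 to 0.145 and 0.0799 to 0.164). That of Cpq was also lost with the replicate block (0.0793) and that of Itga6 with no low-count filter (0.0652).

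Of 25 actin turnover genes, set beside Abracl, edgeR called 0 (3 higher and 2 lower at an unadjusted p under 0.05; 1 higher by DESeq2, 0 by limma-voom), with a median log2 fold change of 0.09. Ssh3, a slingshot phosphatase that activates cofilin, stood at 24.9 ± 1.78 against 33.4 ± 1.92 CPM (edgeR adjusted p = 0.0774), and Twf2, a twinfilin, at 14.2 ± 1.75 against 8.89 ± 1.85 CPM (adjusted p = 0.0906). Of 20 genes of store-operated and endoplasmic reticulum calcium, set beside Tmem178, edgeR called 0 (4 lower and 0 higher at an unadjusted p under 0.05; 0 by DESeq2 and limma-voom), with a median of -0.21, where 12% of all tested genes were lower at that unadjusted p. Plcg1, the phospholipase that releases the calcium signal, stood at 36.1 ± 2.27 against 47.2 ± 4.82 CPM (adjusted p = 0.101) and Itpr2, a calcium channel of that store, at 9.92 ± 1.85 against 15.2 ± 3.41 CPM (adjusted p = 0.131).

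Of 9 angiopoietins, angiopoietin-like factors and Tie receptors tested beside Angptl7, edgeR called 0 higher and 1 lower, with a median log2 fold change of -0.16. At an unadjusted p under 0.05 it was 1 and 1, and 0 and 1 by DESeq2 and by limma-voom. The edgeR call was lost with the replicate block and without each library except DHT replicate 2. Angptl1, 1 of the 9, stood at 0.66 ± 0.033 against 0.24 ± 0.11 CPM and did not pass (edgeR adjusted p = 0.135). It is near the floor, with 32 counts over the DHT libraries and 13 over the controls.

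Of 5 cystatins tested beside Hrg, 1 was called higher, Cstb, an intracellular cathepsin inhibitor, which rose to 65.2 ± 1.57 CPM in DHT against 46.2 ± 2.06 in control, by 0.50 ± 0.10 on the log2 scale (adjusted p = 0.0418 in edgeR). Of 22 coagulation and fibrinolysis genes, 2 were called higher and 0 lower by edgeR, with a median log2 fold change of 0.20. At an unadjusted p under 0.05 in edgeR, 6 were higher and 4 lower, and 5 and 2 were called by DESeq2 and 2 and 0 by limma-voom. Plat, the tissue plasminogen activator gene, rose from 56.3 ± 9.35 to 106 ± 15.8 CPM (0.92 ± 0.16, adjusted p = 0.0345). Serpinf2, the plasmin inhibitor gene, stood at 435, 137 and 379 CPM in DHT replicates 1, 2 and 3 and 77.4 to 83.3 CPM in control (1.98 ± 0.39, edgeR adjusted p = 0.0497). In Serpinf2, DHT replicate 2 was at 36.1% of the lower of the other DHT libraries, beside 33.5% in Hrg, and in Plat at 135%. The calls of Cstb, Plat and Serpinf2 were lost with the replicate block (adjusted p = 0.0918, 0.0918 and 0.0904) and without DHT replicate 1 or 3 or control replicate 2 or 3 (0.0646 to 0.16), and those of Cstb and Serpinf2 also without control replicate 1 (0.0814 and 0.106). Those of Cstb and Plat were lost with total counts (0.101 and 0.0656), and that of Serpinf2 with no low-count filter (0.136).

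Genes whose levels varied most alike were found by Pearson correlation of log2(CPM + 0.5) over the 6 libraries, among 14212 genes averaging 1 CPM or more. For Tspan4 they were Rpl3-ps1, Cfdp1, Eef1akmt1, Aprt and Gm11361 (r of 0.99 for each), and for Abracl Ece2, Thoc3, Aimp1, Plin2 and Mcee. Plin2, a coat protein of lipid droplets, stood at 102, 111 and 113 CPM in DHT replicates 1, 2 and 3 and 57.2 to 62.2 CPM in control. For Tmem178 they were Nat8f6, Ccdc90b, Rundc3a, Arpc2 and Tomm22. Nat8f6, a member of an acetyltransferase family, stood at 227, 90.7 and 146 CPM against 17.6 to 20.6 CPM. For Angptl7 they were Cyb5a, Pecr, Upp2, Psmd7 and Degs2, and for Hrg Gcnt2, Prorsd1, Sdhaf1, Slc22a30 and Wwp1. Upp2, a uridine phosphorylase, stood at 46.4, 10.8 and 46.0 CPM against 2.92 to 4.93 CPM. Its libraries had the same order as those of Angptl7, with a smaller log2 fold change, 3.10 against 3.90. The measure is blind to size: Cfdp1 differed by 0.29 on the log2 scale and Tspan4 by 1.34. With total counts 11 of the 25 genes were chosen again, 4 of 5 for Abracl and 0 of 5 for Tspan4, so these names depend on the scaling. Among the members, Angptl7 and Hrg correlated at 0.99, Tspan4 and Abracl at 0.97, and Tspan4 with Angptl7 and with Hrg at 0.82. Tmem178 correlated with Hrg at 0.96, Abracl at 0.96, Angptl7 at 0.95 and Tspan4 at 0.93. Abracl correlated with Angptl7 at 0.90 and with Hrg at 0.91. All are over the same 6 libraries and include the difference between the groups. The members were picked for that difference and for the place of DHT replicate 2, so nothing is read from these values.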

How the data were processed

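RNA sequencing of 6 kidney samples was deposited by the authors as 1 table of raw counts per gene symbol, whole numbers with no normalization (46095 rows, 20681 with no count). Per the submitters' processing notes, HISAT2 2.0 and mm10 were used; for the counting tool, annotation, strand setting and treatment of reads with several matches, the answer is not given in the sources used here. Columns were matched to samples by title.

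Counts were fitted with edgeR 4.0.16 in R 4.3.3 (filterByExpr with minimum count 10 and minimum total 15, TMM, robust quasi-likelihood fit on group, Benjamini-Hochberg at 0.05 over 15367 genes). SE values are those the F statistic implies. The fit was tested on simulated data. Alternatives were other scalings and filters, DESeq2 1.42.0, limma-voom (limma 3.58.1), no robust step, a replicate block, prior count 2 and leaving out each library. Gene spans and exon lengths are from GENCODE M21 (GRCm38, the assembly of mm10), matched by symbol, and promoter windows from RefSeq on GRCm38.p6. The members, lists and motifs were chosen with earlier results of these data known. Named genes are the members, the 5 most correlated with each, the 2 nearest tested genes on each side, overlapping genes, called genes of each list or else the 2 of smallest p, and the 2 most abundant genes of a marker list that moved with a member. Itga5, Itgb1, Angptl1, Lrp2, Slc27a2, Acsm2, Ehd3, Ttr, Serpina1a, Fga, Fgb, Fgg, Alb, Ahsg and Cps1 were added after their values were seen. Some neighbouring genes, markers and relatives are not reported here.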

Additional observations from a re-analysis of the deposited data

How the results depend on the processing

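The number of genes called higher and lower in DHT (212 and 225) depended on the libraries and the tool. It was 132 higher with total counts, 418 and 434 with no low-count filter, 854 and 780 with DESeq2, and 36 and 49 with the replicate block. Leaving out 1 library at a time gave 0 to 745 higher and 0 to 479 lower: 0 of each without DHT replicate 3, 8 and 11 without DHT replicate 1, 2 and 5 once control replicate 2 was dropped, 33 and 56 once control replicate 3 was dropped, and the highest numbers without DHT replicate 2. Leaving out control replicate 1 gave 113 higher.

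All 5 genes kept a higher level in DHT under the 15 alternatives run for each. As their groups did not overlap, this was largely fixed by how the genes were picked. Across leave-one-out fits the log2 fold change ran from 1.26 to 1.45 for Tspan4, 1.36 to 1.61 for Tmem178, 0.91 to 0.99 for Abracl, 3.54 to 4.33 for Angptl7 and 5.01 to 6.89 for Hrg. Beyond these, 2 values moved by more than the spread between libraries: Abracl was at 0.84 with total counts, a scaling that moved the median of all genes from 0.003 to -0.10, and Hrg at 4.50 with a prior count of 2. With total counts DHT replicate 2 stood at 148% of the lower of DHT replicates 1 and 3 for Tspan4, 96.7% for Tmem178, 117% for Abracl, 25.5% for Angptl7 and 39.3% for Hrg, up for all 5.

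Same-numbered libraries did not deviate together (correlations of 0.084, -0.16 and 0.053), so the numbers were not taken as pairs. With the replicate block the log2 fold changes were 1.34 for Tspan4, 1.49 for Tmem178, 0.95 for Abracl, 3.64 for Angptl7 and 5.43 for Hrg. Depth limits Hrg, with 4 counts over the controls.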
